A study of Mus musculus with 4 samples.

Results

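Prph2, Creb5, Cldn15, Cd68 and Ppp1r10 were 5 of the 23420 genes in the expression tables of cultured neonatal mouse cochlea, and they were chosen by their rises in hair cells exposed to the aminoglycoside gentamicin. Their values in treated against control hair cells are therefore a description and carry no test. All 5 were among the 16076 genes tested, each of which had at least 100 reads over the 12 replicates. By the log2 difference between treated and control hair cells they ranked 1 (Prph2), 2 (Creb5), 3 (Cldn15), 5 (Cd68) and 9 (Ppp1r10). Hist1h1e, Gm16973, Dusp8 and Cntf held the ranks between them. Ppp1r10 stood at a log2 difference of 2.17, and the next gene on the list, 2310014L17Rik, which was not chosen, stood at 2.15.

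The tissue came from mice on the CD1 background that carried an Atoh1-GFP transgene, in which green fluorescent protein follows the activity of a hair cell gene. Cochleae were taken on postnatal day 1 and kept in culture overnight in penicillin-containing medium. In treated cultures a 3 h exposure to 0.5 mM gentamicin followed, which control cultures did not receive. Sorting on GFP gave hair cells (GFP-positive, with weakly fluorescent cells gated out) and non-hair cells (GFP-negative, a mixture of supporting cells, epithelial ridge cells and surrounding tissue). There were 4 groups of 3 replicates: control hair cells, treated hair cells, control non-hair cells and treated non-hair cells. Poly(A) RNA was sequenced. The recovered depth was 22395037 to 28146016 reads per replicate. The study describes the replicates as biological. Neither it nor the labels say which litters or cultures they came from, and p-values measure the spread between these samples. As a check on the sort, the summed score of 8 hair cell markers was 10896 to 11350 in control hair cells and 236 to 261 in control non-hair cells. In treated hair cells it was lower, at 9149 to 10192, although none of the 8 passed the test for a difference between treated and control hair cells. In bulk samples of sorted cells, fewer cells of a type and less RNA per cell cannot be told apart.

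Hair cells are the mechanosensory cells of the inner ear. They take up aminoglycoside antibiotics, which bind the ribosome, and they are the cells that these drugs kill. The 5 genes belong to unrelated families. Prph2 encodes peripherin 2, a tetraspanin that shapes the rims of photoreceptor discs. Creb5 encodes a leucine zipper transcription factor of the CREB and ATF family. Cldn15 encodes a claudin, a tight junction protein that forms cation pores between epithelial cells of the intestine. Cd68 encodes macrosialin, a heavily glycosylated lysosomal membrane protein used as a marker of macrophages. Ppp1r10 encodes PNUTS, a nuclear subunit that targets protein phosphatase 1 and acts at RNA polymerase II.

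The genes lay on 4 chromosomes of mm10 (GRCm38; GENCODE M21 annotation). Prph2 was at chr17:46910459-46924933 and Ppp1r10 at chr17:35916434-35932283, both on the plus strand. Creb5 was at chr6:53287270-53700376 and Cldn15 at chr5:136966616-136975858, also on the plus strand. Cd68, on the minus strand, was the shortest at chr11:69664213-69666153.

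The upstream sequences were compared because the 5 genes rose together in treated hair cells. RefSeq (GRCm38.p6) gave 7 start sites for the 5 genes, and the 250 bases upstream of each were searched on both strands for the AP-1 motif TGANTCA, the CRE core TGACG, the GC box GGGCGG, the TATA box TATAAA and the CCAAT box CCAAT. One window is shown for each gene. The sequences run 5′ to 3′ on the gene's own strand, capitals mark motif matches, and each stops before the first base that GENCODE places in an exon.
Cd68, chr11:69666171-69666420, minus strand: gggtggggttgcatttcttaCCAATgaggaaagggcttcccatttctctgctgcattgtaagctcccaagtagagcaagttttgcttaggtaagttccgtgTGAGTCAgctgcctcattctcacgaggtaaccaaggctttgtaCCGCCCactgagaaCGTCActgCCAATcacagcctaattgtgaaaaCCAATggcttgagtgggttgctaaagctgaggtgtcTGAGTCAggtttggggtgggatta
Cldn15, chr5:136967619-136967843, plus strand: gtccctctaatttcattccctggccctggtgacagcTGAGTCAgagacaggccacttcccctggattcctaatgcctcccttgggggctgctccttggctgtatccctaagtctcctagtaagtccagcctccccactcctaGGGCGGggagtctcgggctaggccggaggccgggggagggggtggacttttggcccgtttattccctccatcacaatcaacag
Creb5 first start, chr6:53287053-53287269, plus strand: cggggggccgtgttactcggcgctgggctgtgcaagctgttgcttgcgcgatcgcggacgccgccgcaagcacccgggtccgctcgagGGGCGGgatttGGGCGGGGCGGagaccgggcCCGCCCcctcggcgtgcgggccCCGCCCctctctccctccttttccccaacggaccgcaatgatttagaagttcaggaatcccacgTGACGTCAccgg
Prph2, chr17:46910228-46910458, plus strand: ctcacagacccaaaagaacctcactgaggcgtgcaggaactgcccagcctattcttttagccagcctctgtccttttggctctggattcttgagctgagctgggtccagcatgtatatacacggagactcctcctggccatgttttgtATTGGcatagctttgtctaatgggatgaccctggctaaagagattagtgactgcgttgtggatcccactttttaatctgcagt
Ppp1r10 second start, chr17:35919022-35919271, plus strand: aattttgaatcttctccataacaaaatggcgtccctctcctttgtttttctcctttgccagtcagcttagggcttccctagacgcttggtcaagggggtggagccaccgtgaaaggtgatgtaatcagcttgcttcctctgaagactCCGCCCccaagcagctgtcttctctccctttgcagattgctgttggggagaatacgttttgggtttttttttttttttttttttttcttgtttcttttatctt
The Cldn15 and Ppp1r10 windows lay inside the GENCODE genes, upstream of a RefSeq start. The first Ppp1r10 window begins in an annotated exon, and the second Creb5 start had its only motif in one, so neither is shown.

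An AP-1 match occurred in 3 of the 7 windows, which belonged to Cd68, Cldn15 and the second Creb5 start. The same motif occurred in 6.75% of 32817 RefSeq windows of this length. Cd68 held 2 copies of TGAGTCA, the first at 149 to 143 and the other at 24 to 18 bases upstream of its start, and 0.338% of all windows held 2 or more AP-1 matches. The Cldn15 copy, also TGAGTCA, lay 214 to 208 bases upstream. The first Creb5 window had no AP-1 match but held TGACGTCA, made of 2 overlapping CRE cores, 45 to 38 bases upstream, together with 5 GC boxes. A CRE core also occurred in the Cd68 window, and in 17.7% of all windows. GC boxes were in 5 of the 7 windows, those of Cd68, Cldn15, the first Creb5 start and both Ppp1r10 starts, and in 32.7% of all windows. The Prph2 window held only an inverted CCAAT box, a motif found in 33.8% of windows, and neither Ppp1r10 window held an AP-1 match or a CRE core. A TATA box was found in 1 of the 7 windows, that of the first Ppp1r10 start, against 12.4% of all windows. That window begins in an annotated exon and has 60 exonic bases. Its TATA box and GC boxes lay near that end, between 242 and 216 bases upstream. These matches describe the letters of the windows only.

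Values below are the deposited scores, normalised read numbers to which 1 had been added, so that a score of 1 is a gene with no reads. A difference in log2 score therefore understates the change of a gene with few reads. Prph2 scored 5.73, 1.09 and 1.05 in the 3 control hair cell replicates, which were 109, 2 and 1 reads. In treated hair cells it scored 15.7, 25.9 and 15.9, or 356, 594 and 417 reads. Control replicate 1 thus stood apart from the other controls, and every treated replicate was above it. The mean rose from 2.62 ± 2.69 to 19.1 ± 5.82 (SD, n = 3), a log2 difference of 3.32 (SE 0.51). Without control replicate 1 the difference was 4.13 (SE 0.20), and with 0.1 in place of 1 as the added constant it was 5.12. In non-hair cells Prph2 had 0 to 2 reads in each of the 6 replicates, too few for a fold change to be given. Readable levels of Prph2 were thus found in treated hair cells and in 1 control hair cell replicate.

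Creb5 scored 4.53, 4.39 and 4.74 in control hair cells and 23.5, 37.5 and 27.1 in treated hair cells. The control replicates lay close together and the groups did not overlap. The log2 difference was 2.66 (SE 0.19), and the reads went from 79 to 81 per replicate to 545 to 873. In non-hair cells Creb5 scored 24.1, 16.4 and 15.2 without the drug and 21.6, 21.4 and 19.1 with it. Untreated non-hair cells thus held more Creb5 RNA than untreated hair cells. After treatment the hair cell range, 23.5 to 37.5, reached into the upper end of the non-hair cell values.

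Cldn15 scored 1.48, 1.73 and 1.41 in control hair cells, which were 11, 17 and 9 reads. In treated hair cells it scored 10.1, 12.3 and 6.99, or 221, 271 and 168 reads. The groups did not overlap, and the log2 difference was 2.64 (SE 0.20), or 3.78 with an added constant of 0.1. Non-hair cells stayed near the control hair cell level, at 1.41, 1.32 and 1.46 without and 1.89, 1.33 and 1.53 with gentamicin.

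Cd68 scored 2.13, 2.84 and 2.34 in control hair cells and 13.7, 17.9 and 10.9 in treated hair cells. Every treated replicate was above every control, with a log2 difference of 2.52 (SE 0.22) and reads of 26 to 43 against 278 to 403. With an added constant of 0.1 the difference was 3.10. In non-hair cells Cd68 scored 7.65, 12.5 and 10.1 without the drug and 8.5, 7.70 and 9.58 with it. As for Creb5, control hair cells were the lowest group, and the treated hair cells overlapped control non-hair cells at the upper end.

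Ppp1r10 was the only one of the 5 with an appreciable level in every group. It scored 97.7, 96.2 and 104 in control hair cells, and 388, 569 and 403 in treated hair cells. Between 2225 and 2227 reads per control replicate became 9376 to 13562, and the log2 difference was 2.17 (SE 0.19). Non-hair cells scored 63.8, 66.5 and 79.0 without gentamicin and 96.5, 70.5 and 125 with it. Of the treated non-hair cell replicates, replicate 2 lay within the control range and the others above it.

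**Figure D1:**
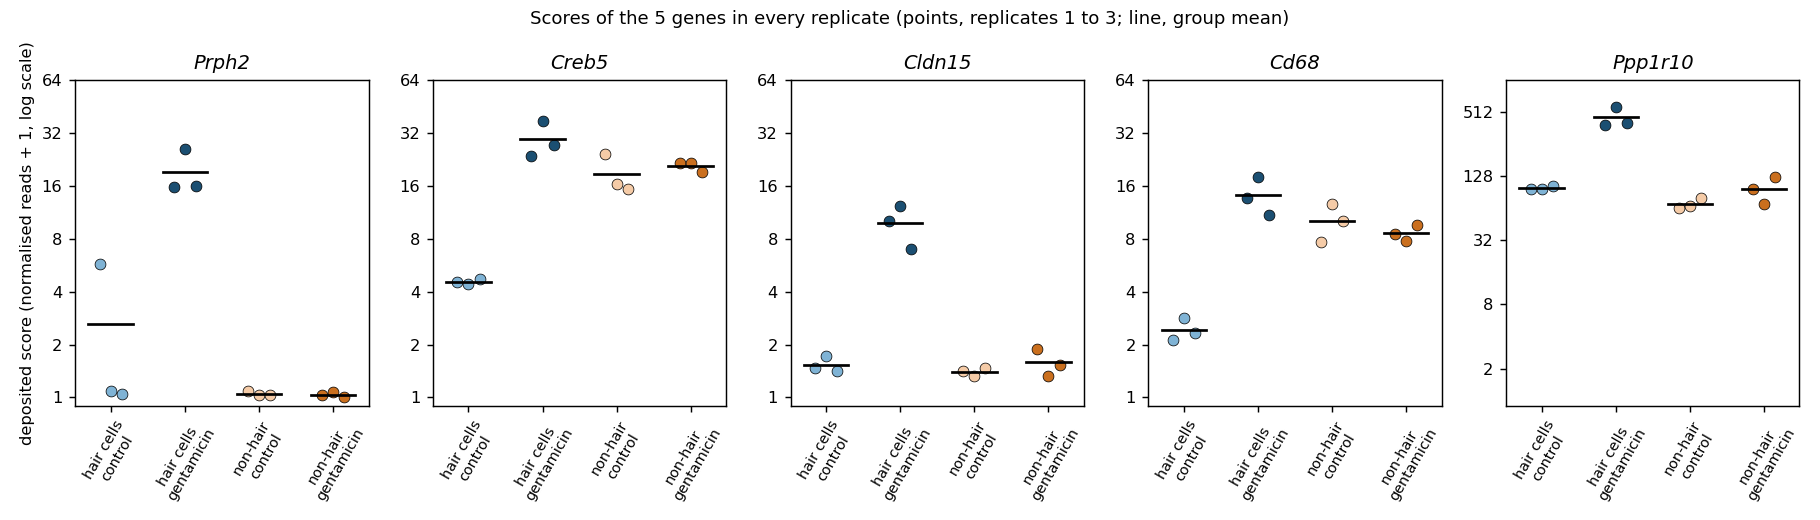
Deposited score (normalised reads plus 1, log2 axis) of each gene in the 12 replicates, with points for replicates 1 to 3 and a line at the group mean. Treated hair cells are highest for all 5 genes by group mean, and control hair cells are lowest for Creb5 and Cd68.

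Treated hair cell replicate 2 was the highest of the treated replicates for all 5 genes, and leaving it out gave log2 differences of 3.08 (Prph2), 2.47 (Creb5), 2.45 (Cldn15), 2.34 (Cd68) and 2.0 (Ppp1r10). Per kilobase of exon, the order in treated hair cells was Ppp1r10 at a mean score (less 1) of 80.4, Cd68 at 10.5, Prph2 at 6.04, Cldn15 at 4.15 and Creb5 at 1.13. Exon lengths were the union of GENCODE exons, 25021 bases for Creb5 and 1257 for Cd68, which may not be the lengths of the transcripts present. Across all genes tested, 4418 (27.5%) differed in hair cells at the thresholds used here (p under 0.01 before adjustment, and more than 1.2-fold in either direction), and 2037 (12.7%) were higher in treated hair cells. The 5 genes passed by their choice, and nothing is read from that.

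**Figure D2:**
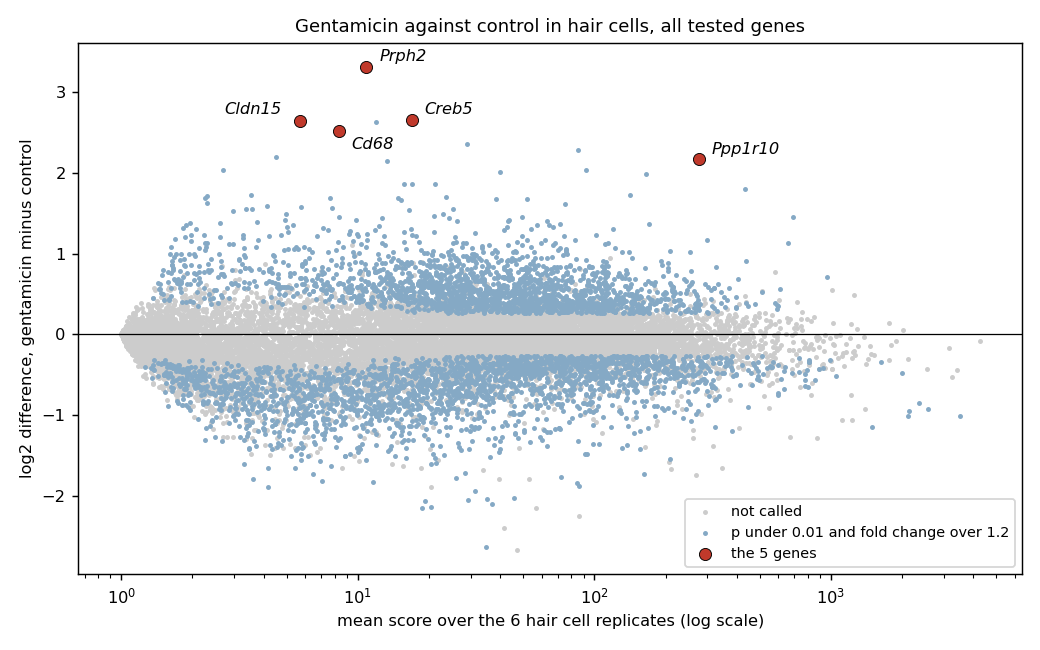
Log2 difference between treated and control hair cells against the mean score of the 6 hair cell replicates (log axis) for all 16076 tested genes. The 5 chosen genes lie between 2.17 and 3.32, and Ppp1r10 has a far higher mean score than the other four.

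The first question that the choice did not touch was whether the genes also responded in non-hair cells, which had no part in it. Prph2 had too few reads there to be judged, and none of the other 4 genes passed the test, where 875 of the 16076 genes (5.44%) did. The log2 difference was 0.19 for Creb5 (95% confidence interval −0.24 to 0.61, adjusted p = 0.656). It was 0.17 for Cldn15 (−0.27 to 0.60, adjusted p = 0.702) and −0.21 for Cd68 (−0.68 to 0.27, adjusted p = 0.657). Ppp1r10 was 0.45 higher (0.03 to 0.87, adjusted p = 0.267), with treated and control replicates overlapping. Without treated non-hair cell replicate 2, the lowest of the 3, the Ppp1r10 difference was 0.66 and met the unadjusted threshold, while its adjusted p was 0.219. Without treated replicate 3 it was 0.25. The difference between the hair cell and non-hair cell responses was not tested for the 5 genes, because the hair cell response chose them. Over all genes, 13.4% differed between the 2 responses at an adjusted p under 0.05.

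The second question was in which population each gene was present without the drug. This comparison shares the control hair cell replicates with the one that chose the genes, and a choice by the size of a rise favours genes with low control hair cell values, so its p-values are not independent of the choice. Cd68 and Creb5 were lower in hair cells, by 2.03 (SE 0.22, adjusted p = 4.8e-06) and 2.0 (SE 0.19, adjusted p = 2.0e-06) on the log2 scale, with means at 0.241 and 0.245 of the non-hair cell means. Ppp1r10 was 0.51 higher in hair cells (SE 0.19, adjusted p = 0.030) without overlap of replicates, and it missed the unadjusted threshold. It passed that threshold when the scores were rescaled by median ratios (0.64) and when the 2 control groups were fitted alone. Cldn15 differed by 0.14 (−0.30 to 0.57, adjusted p = 0.548). Prph2 differed by 0.83 (−0.30 to 1.95, adjusted p = 0.164), a value set by 1 library, since it was 0.02 without control hair cell replicate 1. Over all genes, 65.8% passed the test between the 2 control populations, with a median log2 difference of −0.12 that became −0.01 after rescaling by median ratios. Relative to that median, Cd68 and Creb5 stayed lower and Ppp1r10 higher in hair cells.

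**Figure D3:**
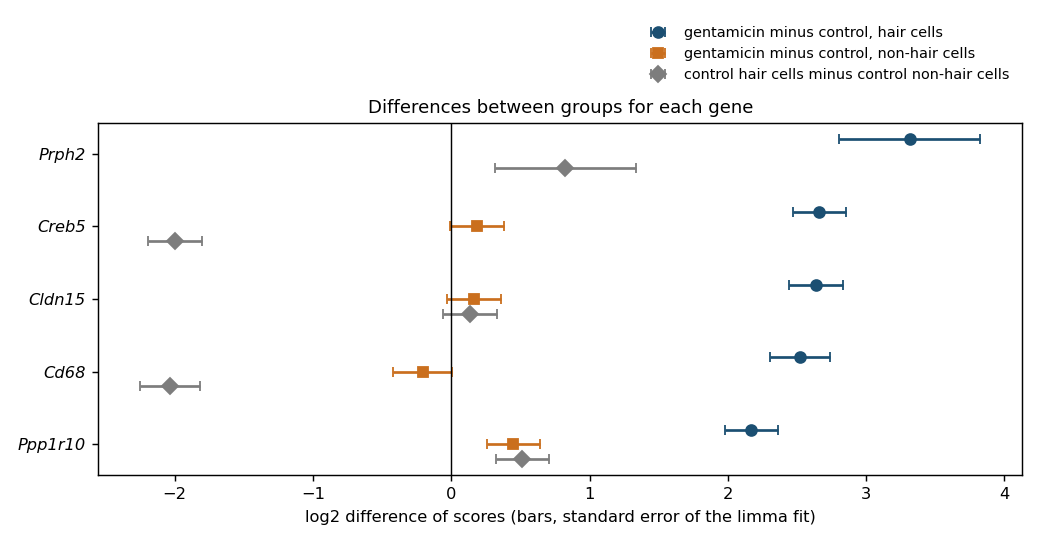
Log2 differences of the 5 genes with their standard errors for gentamicin in hair cells, gentamicin in non-hair cells and control hair cells against control non-hair cells. The hair cell responses lie between 2.17 and 3.32, the non-hair cell ones between −0.21 and 0.45, and Creb5 and Cd68 are near −2.0 between control populations; Prph2 in non-hair cells had too few reads to plot.

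The relatives of each gene were examined with the members left out. Of 26 tetraspanins tested beside Prph2, none passed as higher and 4 as lower in treated hair cells, against 12.7% of all genes higher and 14.8% lower. Those that passed were Tspan14, Cd81, Cd151 and Tspan9. Cd81, a partner of membrane receptors, went from 211 ± 11.2 to 150 ± 15 (log2 −0.49, adjusted p = 0.0012). It was the only one of the 4 still passing when scores were scaled by total reads. The list's median log2 difference was −0.22, and that of all genes was −0.09. In non-hair cells 1 of the 26, Tspan18, passed (log2 0.48, adjusted p = 0.142).

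The photoreceptor genes, which act beside Prph2 in the retina, had 15 genes with enough reads to test of the 34 examined in the tables. Of these 15, Rdh12 and Impg2 passed as higher in treated hair cells and none passed as lower, or 13.3% called. Rdh12, a retinol dehydrogenase, went from 140 ± 6.19 to 220 ± 33.4 (log2 0.64, adjusted p = 0.0027). Impg2, a proteoglycan of the photoreceptor matrix, went from 3.63 to 5.54. The median over the 15 genes was −0.04, and it was 0.02 when scores were scaled by total reads. In non-hair cells Gucy2e, a guanylate cyclase, passed (log2 0.45, adjusted p = 0.107).

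Among 24 tested relatives and partners of Creb5, 6 passed as higher and 2 as lower in treated hair cells, which was 33.3% called against 27.5% of all genes. Atf4, the effector of the integrated stress response, went from 193 ± 15.3 to 672 ± 76.7 (log2 1.80, adjusted p = 8.6e-06). Atf2, a stress-kinase target, rose by 0.51 and Ep300, a histone acetyltransferase that serves as coactivator, by 0.41. Creb1, Atf1 and Creb3 also passed as higher, but of the 14 alternative settings 7 lost the Atf1 call, 2 that of Creb3 and 1 that of Creb1. Crebbp, the paralog of Ep300, fell by 0.46 and Creb3l1 by 0.27. The Creb3l1 call was lost in 6 of the 14 alternatives, among them scaling by total reads and by median ratios. The list's median was 0.06. In non-hair cells 2 of the 24 passed, Atf5 (log2 −0.47, adjusted p = 0.162) and Atf6b (log2 0.37, adjusted p = 0.145), calls that were lost in 10 and 7 of the 14 alternatives.

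No claudin other than Cldn15 passed in hair cells. Of 17 tested, log2 differences ran from −0.86 to 0.22 with a median of −0.11, where 27.5% of all genes passed. In non-hair cells Cldn5, the endothelial claudin, rose from 31.6 ± 5.34 to 70.0 ± 20.7 (log2 1.12, adjusted p = 0.047), and Cldn11, a claudin of the stria vascularis and myelin, from 68.5 to 99.2 (log2 0.53, adjusted p = 0.120). Cldn5 is itself among the 7 endothelial markers and was the only 1 of them to pass in non-hair cells. With Cldn5 counted, 6 of the 7 had log2 differences above 0. The summed score of the 7, Cldn5 included, was 335 to 369 in control and 391.9 to 495 in treated non-hair cells. The part of endothelial RNA in the Cldn5 rise was not tested. Cldn5 and Cldn11 had means of only 1.90 to 2.80 in the hair cell groups.

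Cd68 was set beside 17 tested genes of the lysosomal membrane and its control. None passed as higher in treated hair cells and 5 passed as lower: Npc1 (log2 −0.41), Mcoln1 (−0.34), Scarb2 (−0.32), Slc17a5 (−0.28) and Lamp1 (−0.27). That was 29.4% of the list, against 14.8% of all genes lower. The median was −0.25. None of the 5 passed when scores were scaled by total reads, where the median was −0.15. None of the 17 passed in non-hair cells.

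Because Cd68 also marks macrophages, 26 tested macrophage markers were examined. One, Fcgr1, an Fc receptor, rose in treated hair cells, from 1.19 ± 0.13 to 2.06 ± 0.53 (log2 0.77, adjusted p = 0.0058). None passed as lower, so 3.85% were called against 27.5% of all genes. Csf1r, the receptor that macrophages need to survive, averaged 1.2 and 1.46 in control and treated hair cells against 8.33 and 9.25 in non-hair cells. C1qa, a complement subunit, averaged 1.35 and 1.42 against 11.5 and 12.7. Ptprc and Aif1, the leukocyte phosphatase CD45 and the actin-binding protein Iba1, were at means from 1.07 to 1.35 in both hair cell groups. The summed score (each less 1) of the 27 markers in the tables was 115 to 129 in control and 84.0 to 94.3 in treated hair cells, but Laptm5, a lysosomal membrane protein, made up most of it, at means of 110 and 74.0. Without Laptm5, a choice made after seeing the data, the sum was 11.1 to 11.5 in control hair cells and 13.2 to 16.6 in treated hair cells, against 103 to 184 in control and 126 to 170 in treated non-hair cells. The part of macrophage RNA in the Cd68 values was not tested.

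**Figure D4:**
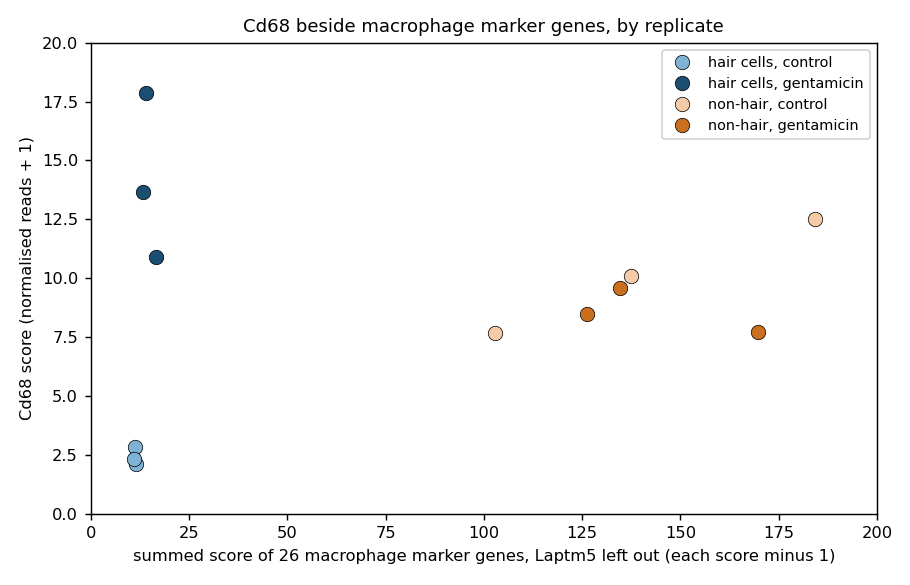
Cd68 score against the summed score of 26 macrophage markers (each score less 1, Laptm5 left out) in the 12 replicates. The 3 treated hair cell replicates have Cd68 scores of 10.9 to 17.9 at marker sums of 13.2 to 16.6, and the non-hair cell replicates have scores of 7.65 to 12.5 at sums of 103 to 184.

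The protein phosphatase 1 list, of which Ppp1r10 is a regulatory subunit, had 42 other tested genes. In treated hair cells 6 passed as higher and 8 as lower, or 33.3% called against 27.5% of all genes. The largest rise among called genes was in Ppp1r15a (Gadd34), which directs the phosphatase to the initiation factor eIF2, at 99.0 ± 11.7 against 173 ± 36.0 (log2 0.79, adjusted p = 0.018). That call was lost without control replicate 1, control replicate 3 or treated replicate 2. Ppp1r8, another nuclear subunit, rose by 0.36 (adjusted p = 0.0099). Ppp1r42 rose by 0.35 at low means of 1.86 and 2.37, a call lost in 6 of the 14 alternatives. Ppp1r12a rose by 0.34, Ppp1r21 by 0.32 and Tox4, a partner of PNUTS, by 0.27. The Tox4 call was lost in 3 alternatives, and Wdr82, also on the list, was not called. The largest falls among called genes were in Ppp1r3b, a glycogen-targeting subunit, from 14.1 ± 1.21 to 6.73 ± 2.45 (log2 −1.13), Ppp1r13l, a p53 inhibitor (log2 −0.93), and Ppp1r32 (log2 −0.92). The list's median was −0.05, and 0.04 when scaled by total reads. In non-hair cells 3 of the 42 passed: Ppp1r1b and Ppp1r7 were higher and Ppp1r2 lower, with adjusted p from 0.090 to 0.129.

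**Figure D5:**
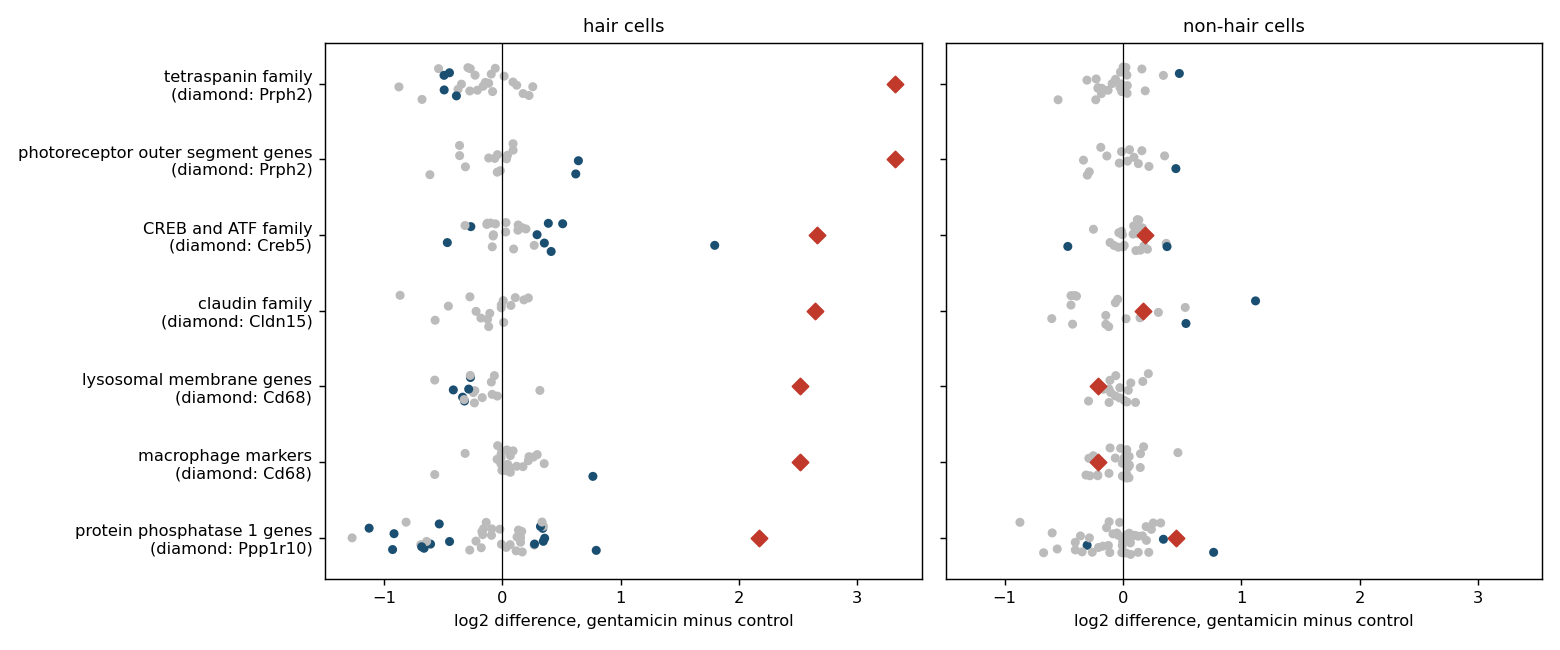
Log2 differences between treated and control replicates for the tested genes of the 7 related lists in hair cells and non-hair cells, with dark points for genes past the test and a diamond for the chosen gene (Prph2 is left out of the non-hair cell panel). In hair cells each diamond, from 2.17 to 3.32, lies beyond every relative, of which Atf4 at 1.80 is the farthest to the right. That the diamonds lie farthest out follows from choosing these genes by the size of their rises.

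Markers of other cell types were summed in hair cells as well, and their counts are to be read against the 14.8% of all genes that were lower. The summed score of 7 fibroblast markers was 536 to 784 in control and 367 to 449 in treated hair cells, and 4 of the 7 passed as lower. For 8 supporting cell markers it was 1356 to 1580 against 669 to 1191 (2 passed as lower). For 5 glia markers it was 201 to 247 against 100.2 to 169 (2 passed), and for 7 endothelial markers 15.6 to 29.6 against 8.45 to 14.7 (1 passed). These 4 sums did not overlap between the groups. The 6 neuron markers overlapped at 996 to 1200 against 927 to 1085, and none passed. For the 6 erythroid markers in the tables the sum was 0.73 to 2.53 against 0.43 to 14.8, and none of the 5 tested passed, although all 5 had log2 differences above 0. No gene of these lists passed as higher in treated hair cells. In control non-hair cells the supporting cell sum was 773 to 1287, below that of control hair cells. The neuron sum there was 565 to 1496, which spanned that of control hair cells. Neither sum therefore sets non-hair cell RNA apart from hair cell RNA. The fibroblast, glia and endothelial sums were higher in control non-hair cells, at 5862 to 7307, 478 to 704 and 335 to 369, as was the erythroid sum, at 4.32 to 63.7. The part of these cell types in the values of the 5 genes was not tested.

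The genes next to each member were checked on the annotation, among genes that were in the expression tables and had a single annotated position. Fis1 ended 382 bases before Cldn15 on the same strand and differed by −0.15 (adjusted p = 0.178) in treated hair cells, and Znhit1 on the other side by 0.03. Eif4a1 ended 783 bases before Cd68 on the same strand, at 367 ± 17.2 against 406 ± 7.13 (log2 0.14, adjusted p = 0.189). Tbcc and Ubr2, the neighbours of Prph2, differed by 0.35 (adjusted p = 0.045) and 0.12, and neither passed. Mrps18b started 45 bases from Ppp1r10 on the opposite strand and differed by 0.28 (adjusted p = 0.064). The exception was Gm8801, a pseudogene 14963 bases beyond Ppp1r10 on the same strand. It rose from 9.19 ± 0.68 to 33.4 ± 2.01 (log2 1.86, adjusted p = 8.0e-05) in treated hair cells and differed by 0.13 in non-hair cells (adjusted p = 0.767). Of the 1015 distinct 50-base words in its transcripts, 24 also occurred in Ppp1r10 transcripts and none in those of the other 4 genes. Some of the Gm8801 reads may thus come from Ppp1r10, and their share was not measured. The microRNA genes Mir1894, inside Ppp1r10, and Mir1934, near Cd68, had 15 and 3 reads in all and were not tested. Among the genes searched, none overlapped Creb5 or lay within 50 kb of it.

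Over the 12 replicates the 5 genes formed 2 patterns. Prph2, Cldn15 and Ppp1r10 correlated with each other at Pearson r of 0.92 to 0.97 on log2 scores, and Creb5 with Cd68 at 0.94. The other pairs lay between 0.34 and 0.54. The points share the treated hair cell replicates on which the genes were chosen, so these are descriptions. Among 13819 genes with a mean score of at least 5 in some group, those most like Prph2 were 1700102P08Rik (r = 0.96), Zfp35 (0.96) and Rbm48 (0.96). Rnf2 (0.98), Tex10 (0.98) and Snap23 (0.98) were most like Creb5, and Ppp2r2a (0.99), Cnot4 (0.99) and Ccdc84 (0.99) most like Cldn15. Gnl3 (0.98), Neu3 (0.97) and Itch (0.97) were most like Cd68, and Ppil4 (0.98), Prkrip1 (0.98) and Yrdc (0.98) most like Ppp1r10. Their rises in hair cells had log2 differences of 0.42 (Itch) to 1.42 (1700102P08Rik). That these were smaller follows from choosing the 5 genes by the size of their rises.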

How the data were processed

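RNA from sorted hair cells and non-hair cells was sequenced as 50-bp single reads from mRNA-seq libraries. Per the labels and the study's methods, the authors aligned trimmed reads with TopHat 2 to mm10 and normalised read numbers in Partek Flow. The deposited score is that normalised read number plus 1. The methods name RPKM, but the values show no division by gene length. Strand was not stated. Low scores were whole multiples of 1 read within 0.1 of a read for 83.3 to 84.5% of values (1 read was 0.0352 to 0.0461 of a score), and reads were recovered on that basis for depth and the filter, not for a count test.

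Log2 scores of genes with at least 100 recovered reads in total entered 1 two-sided limma model (version 3.58.1, R 4.3.3) of all 4 groups, with an intensity trend. A gene was called when p before adjustment was under 0.01 and it changed more than 1.2-fold, the study's criteria, and p-values were Benjamini-Hochberg adjusted over 16076 genes. On simulated scores for the non-hair cell comparison (200 of 16076 genes changed by 1 on the log2 scale), 96% of changed genes and 0.964% of the others were called. The simulated noise was drawn separately for each gene, without the deviations that genes of a real replicate share. The 0.964% is therefore not an error rate for the real calls. One gene of the photoreceptor list is not reported here. Summaries used Python 3.11.15.

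Members, gene lists and tests were chosen with earlier results of these data known. Named genes were the 5 members, up to 3 called genes with the largest rise and fall in hair cells per related list, 4 defining macrophage markers, the nearest and overlapping genes within 50 kb and the 3 most correlated genes per member. Genes called in non-hair cells and other called list genes were named in addition, after their values were seen. Replicate numbers come from the column names. Deviations of same-numbered replicates correlated at 0.0369 to 0.0523 for gentamicin in hair cells, at −0.232 to 0.683 in non-hair cells, and at 0.200 to 0.316 between the control populations, so they paired the samples only in the last. Alternatives covered the added constant, scaling, read minimum, replicate block, fit and single replicates.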

Additional observations from a re-analysis of the deposited data

Results flagged for a closer look

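Of 40 named relatives and neighbours, 11 differed between hair cells and non-hair cells in their response to gentamicin, by the interaction term of the limma fit at an adjusted p under 0.05, which 13.4% of all genes passed. Most were named because they passed the test in one of the populations, so these differences were partly selected. The hair cell log2 response exceeded the non-hair cell one by 1.83 for Atf4 (adjusted p = 0.00034), 1.73 for Gm8801 (adjusted p = 0.0039) and 1.2 for Ppp1r15a (adjusted p = 0.029). It exceeded it by 0.98 for Fcgr1, 0.757 for Impg2 and 0.656 for Rdh12. The difference was −1.25 for Ppp1r3b, −0.425 for Crebbp and −0.351 for Creb3l1, which fell in hair cells. It was −1.11 for Cldn5 and −0.767 for Tspan18, which passed as higher in non-hair cells. The share of Gm8801 reads that may come from Ppp1r10 was not measured. Groups of 3 replicates were too small for a test of single outlying samples.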

How the results depend on the processing

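Of 403 alternative values for the 5 genes and their relatives, 336 stayed within the limits set for each result. No difference of the 5 genes reversed in sign, and the counts of relatives could not reverse. For the 5 genes in hair cells the limit was the replicate spread. Read minimums, the replicate block and the choice of fit cannot move those differences, so these values were fixed in advance. In their other comparisons the limit was an unchanged sign and call. Prph2 between control populations thus counted as the same at 0.02 as at 0.83. Counts of relatives had to stay within a set ratio. An added constant of 0.1 in place of 1 raised the hair cell log2 differences to 5.12 (Prph2), 2.93 (Creb5), 3.78 (Cldn15) and 3.10 (Cd68), as the constant weighs most on low scores. With single replicates left out, the 5 hair cell differences ran from 2.0 to 4.13. The Ppp1r10 difference between control populations passed the threshold at 0.64 with median ratio scaling and at 0.51 with the compared groups alone. In non-hair cells the Ppp1r10 response was 0.25 to 0.66 with single replicates left out. Cldn15 had too few reads for the minimum of 1000, and Prph2, with at most 2 reads per non-hair cell replicate, is given no response there.

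Counts of called relatives moved as follows in hair cells. Scaling by total reads left 1 of 4 tetraspanins and 0 of 5 lysosomal membrane genes, and median ratio scaling left 3 of these 5. With no minimum of reads there were 4 photoreceptor genes and 1 claudin, and with a minimum of 1000 reads 1 photoreceptor gene and 0 macrophage markers. The replicate block gave 1 claudin and 2 macrophage markers, as did the compared groups alone (1 and 2). An adjusted p under 0.05 gave 8 lysosomal membrane genes and 2 macrophage markers. With single replicates left out the counts were 1 to 6 tetraspanins, 5 to 7 CREB and ATF genes, 2 to 4 lysosomal membrane genes and 8 to 15 protein phosphatase 1 genes.

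In non-hair cells an added constant of 0.1 gave 0 photoreceptor genes and 1 claudin. The CREB and ATF count was 1 with no minimum of reads, with a minimum of 1000, with the replicate block and with no variance trend, and 0 with the compared groups alone. The minimum of 1000 reads and the compared groups alone each gave 0 photoreceptor genes. The protein phosphatase 1 count was 5 with the replicate block and 1 with the compared groups alone. An adjusted p under 0.05 left 1 claudin and 0 genes of the tetraspanin, photoreceptor, CREB and ATF, and protein phosphatase 1 lists. With single replicates left out the counts were 0 to 2 tetraspanins, 0 to 2 photoreceptor genes, 0 to 2 CREB and ATF genes, 1 to 3 claudins and 1 to 6 protein phosphatase 1 genes. Causes of these moves were not tested. The replicate block changed no call of the 5 genes, in the control populations where the numbers paired the samples or elsewhere.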
